A study of Homo sapiens with 6 samples.

Results

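Mitochondrial ribosomal proteins are encoded in the nucleus, translated on cytosolic ribosomes and imported into mitochondria, where they build the ribosome that translates the mRNAs of the mitochondrial genome. Many carry a removable N-terminal presequence rich in basic residues. The large subunit forms peptide bonds and the small subunit decodes the mRNA, and part of each has bacterial counterparts while the rest is specific to mitochondria. MRPL symbols belong to the large subunit and most MRPS symbols to the small one, but MRPS30 and MRPS18A are known as proteins of the large subunit and MRPS36 of neither. Their mRNAs were selected by symbol alone, as MRPL or MRPS followed by a number and at most 1 letter, with no use of any measured value. This gave 76 genes (48 MRPL and 28 MRPS) of 10779 genes in all.

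The data are ribosome profiling of HEK293 cells, a human embryonic kidney line, in 3 replicates labelled as control siRNA. Each replicate has a library of ribosome-protected fragments (RPFs) and a library of rRNA-depleted total RNA from the same lysate, and cells and lysates were treated with cycloheximide, which arrests elongating ribosomes. There is 1 condition, so the comparisons are between mRNAs. Of the 76 genes, 73 are among the 8121 with a translational efficiency (TE), the authors' ratio of RPFs to total RNA in each replicate, and 71 are among the 9570 with a ribosome occupancy, 68 being in both. Occupancy is the authors' in-frame RPF count per codon, normalized for library size and divided by mRNA abundance in TPM. It combines the replicates and so has no replicate error. MRPL40, MRPS5, MRPS11, MRPS22 and MRPS25 have a TE only, and MRPL45, MRPS12 and MRPS18A an occupancy only.

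Before the values, the sequence at the start codon is given for 8 of the 71 mRNAs, because these share a run of letters that includes the start codon. The run AAGATGGCGGC was the most frequent of all runs of 11 letters that begin 3 bases before the start codon of these mRNAs, on the sense strand, the next being found in 4. It matches the core of the element known as TISU, a start site described in mRNAs with very short 5′UTRs. The letters come from the GENCODE 44 transcript of the same CDS length, at GRCh37 positions within the first coding exon, and capitals mark the run.
MRPL22 (chr5:154320662-154320682, plus strand): gggcgaAAGATGGCGGCggca
MRPL38 (chr17:73900945-73900965, minus strand): ggagggAAGATGGCGGCgccc
MRPL46 (chr15:89010597-89010617, minus strand): gaacgaAAGATGGCGGCgccc
MRPL50 (chr9:104160863-104160883, minus strand): tcatcgAAGATGGCGGCgcga
MRPS10 (chr6:42185576-42185596, minus strand): accggcAAGATGGCGGCgcgg
MRPS18A (chr6:43655505-43655525, minus strand): tttttgAAGATGGCGGCcctc
MRPS24 (chr7:43909083-43909103, minus strand): tggcccAAGATGGCGGCctcc
MRPS30 (chr5:44809056-44809076, plus strand): cgggcaAAGATGGCGGCggcc
The run was found in 8 of 71 mRNAs of mitochondrial ribosomal proteins (11.3%) and in 126 of all 9137 with a matched CDS (1.38%). It was found in 3 of 36 mRNAs of complex I subunits and in 0 of 70 of cytosolic ribosomal proteins. In 7 of the 8 the 5′UTR of the authors' transcript held 13 codons or fewer, the exception being MRPL38 with 71 codons. That limit is the length of the longest of the 7, MRPS24, and the share of other mRNAs within it was not counted. The median 5′UTR of the 8 held 10 codons, against 26 for the 71 mRNAs and 56 for all transcripts. Over all mRNAs the same run was the most frequent too. It was chosen from these start sequences, so its share among them is a description.

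The mRNAs of mitochondrial ribosomal proteins had a high TE as a group. The median TE was 1.01, 0.998 and 0.891 in replicates 1, 2 and 3, against 0.382, 0.380 and 0.388 for all genes. On the log2 scale the median of the 73 genes lay 1.31 ± 0.11 (SD, n = 3) above that of all genes. Each gene was tested against the median of all genes with limma at an FDR of 0.05. Of the 73, 56 were higher (76.7%), where 44.7% of all genes were called higher, and 10 were lower (13.7%), where 44.6% of all genes were called lower. At more than 2-fold from the median, 40 genes were higher (54.8%, against 23.3% of all genes) and 3 were lower (4.11%, against 18.2% of all genes). Replicates of a gene differed little, with a median SD of 0.07 in log2 TE, so that small differences from the median passed the first test.

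**Figure D1:**
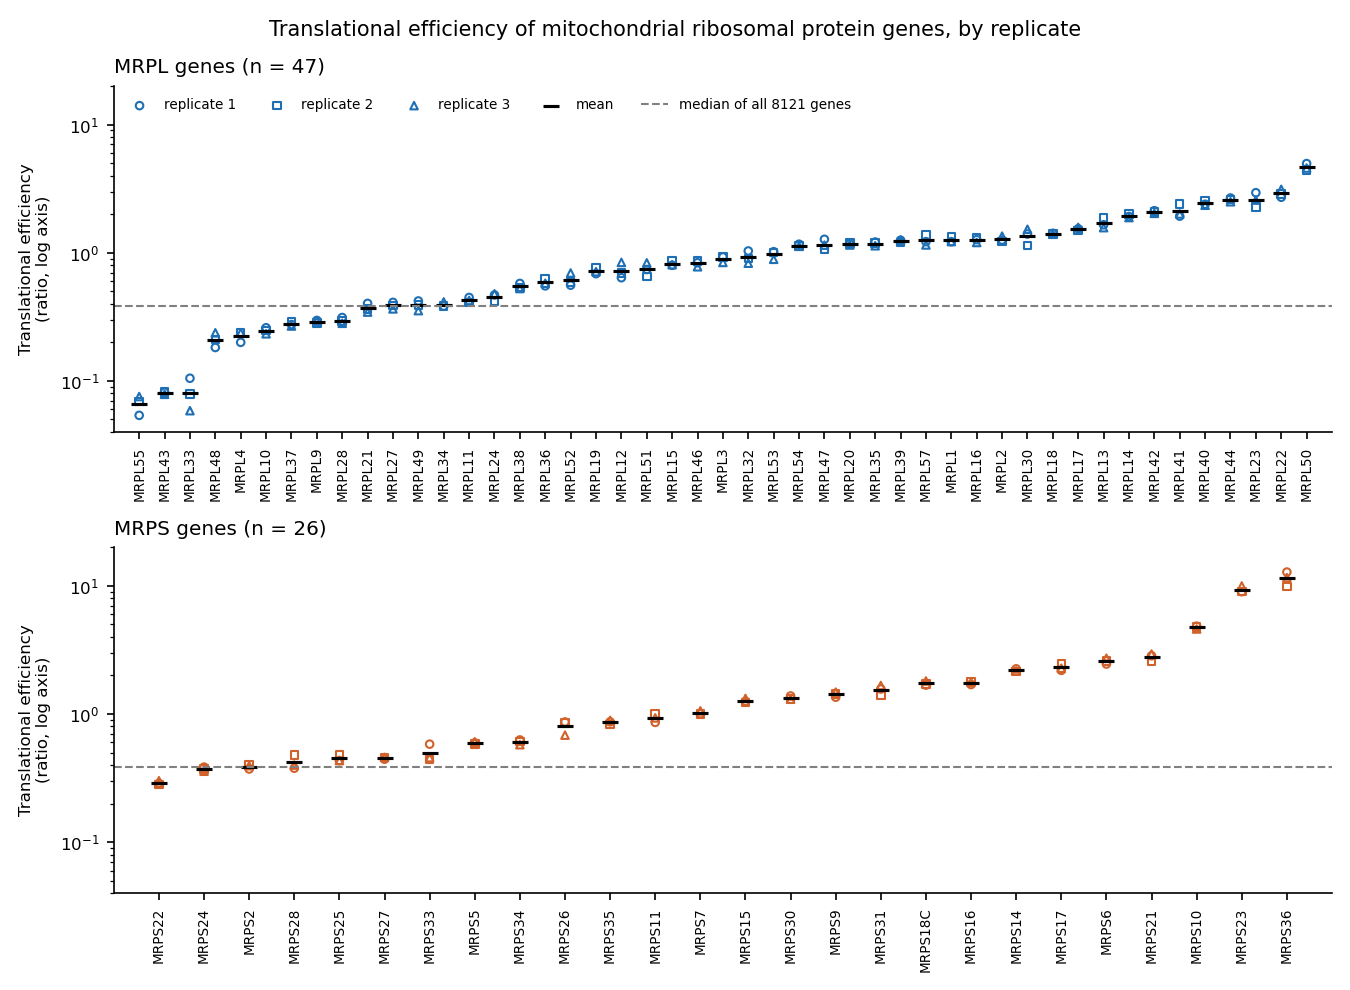
Translational efficiency (ratio, log axis) of the 47 MRPL and 26 MRPS genes with a value, ordered by mean, with a symbol for each of 3 replicates and a bar for their mean; the dashed line is the median of all 8121 genes. MRPS36 and MRPS23 stand highest, MRPL55, MRPL43 and MRPL33 lowest, and most genes lie above the line in every replicate.

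Within the group TE spanned 173-fold, from 0.0660 for MRPL55 to 11.4 for MRPS36. MRPS36 had a TE of 12.8, 9.87 and 11.6 in the 3 replicates, which is 4.85 ± 0.08 (SE) above the median of all genes on the log2 scale. Despite its symbol, MRPS36 is known as a component of the α-ketoglutarate dehydrogenase complex and is left out below where subunits are taken by structure or proteins by origin. Of its CDS 30-mers, 51.9% also occur in another gene, mostly the pseudogene MRPS36P1. MRPS23, a small-subunit protein specific to mitochondria, had a TE of 9.002, 9.07 and 9.98 and shares no 30-mer with another gene. Both genes lay above all other members in every replicate.

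MRPS10 and MRPL50 came next. MRPS10, which has a bacterial counterpart in the head of the small subunit, had a TE of 4.84, 4.77 and 4.61. MRPL50 had a TE of 4.96, 4.42 and 4.58, so that the replicates of the genes overlap. Both carry the start sequence AAGATGGCGGC shown above, and both share part of their CDS with pseudogenes (35.5% and 23.4% of 30-mers). Among the other MRPS genes MRPS21 reached a mean of 2.79 ± 0.18 (SD, n = 3) and MRPS6 a mean of 2.58 ± 0.13. Among the MRPL genes MRPL22 and MRPL23, whose bacterial counterparts sit at the peptide exit tunnel, had means of 2.90 ± 0.21 and 2.60 ± 0.33. MRPL44 had a mean of 2.59 ± 0.09 and MRPL40 one of 2.43 ± 0.11. All 10 genes were more than 2-fold above the median of all genes, the largest adjusted p being 2.9e-05 for MRPL23.

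The lower end was made up of MRPL genes. MRPL55 had a TE of 0.0538, 0.0688 and 0.0754, MRPL43 one of 0.0814, 0.0822 and 0.0785, and MRPL33 one of 0.105, 0.0790 and 0.0585. These 3 genes were the ones more than 2-fold below the median of all genes, and the replicates of MRPL33 overlap those of both others. MRPL33, a small protein of bacterial origin, also had the largest spread of any member, with an SD of 0.37 in log2 TE, followed by MRPL30 and MRPL55 with 0.22 each. The next lowest, MRPL48 of the central protuberance (0.210 ± 0.028) and MRPL4 near the exit tunnel (0.225 ± 0.022), were lower without reaching 2-fold. Among the MRPS genes MRPS22 alone was called lower (0.290 ± 0.010). MRPS24, MRPS2 and MRPS28, with means of 0.372, 0.389 and 0.419, did not pass the test, and MRPS25 was higher by 0.22 on the log2 scale (adjusted p = 0.015, limma). Without replicate 2 the call for MRPS25 was lost (adjusted p = 0.078, limma). MRPS25 and MRPS28 share 67.55% and 55.7% of their CDS 30-mers with other genes, so their values are uncertain.

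The start codons of the genes at both ends are shown with 9 bases on each side and the codon in capitals, because start sites of opposite ranks can then be compared.
MRPS36 (chr5:68513648-68513668, plus strand): tcgggggtcATGatgggcagc
MRPS23 (chr17:55927360-55927380, minus strand): gcgcagatcATGgcaggcagc
MRPL55 (chr1:228295950-228295970, minus strand): taaggaggaATGgcggccgtg
MRPL43 (chr10:102747189-102747209, minus strand): gctgtagctATGacggcgcgc
MRPL33 (chr2:27994636-27994656, plus strand): gtggtcaccATGttcctctcc
A strong context by the usual rule, a purine 3 bases before the start codon and a G right after it, was present in 64.8% of the 71 mRNAs and in 46.1% of all mRNAs with a known context. The start codon was followed by G in 50 of 71 (70.4%, against 53.2% of all). Of these 5 mRNAs, MRPS23 and MRPL55, from opposite ends, have both features, and MRPS36, MRPL43 and MRPL33 have the first only. Of the 7 mRNAs with a TE and the run AAGATGGCGGC, 6 were higher than the median of all genes and 0 were lower, where 44.7% of all genes and 76.7% of all 73 members were called higher. Their means ran from 0.372 for MRPS24, which did not pass the test, to 4.74 for MRPS10. MRPL38 (94.1%), MRPS24 (92.0%) and MRPL46 (72.0%) share most of their CDS 30-mers with other genes, so reads could be split between genes and these values are uncertain.

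Genes with known places in the ribosome were found at all levels. In the stalk that recruits translation factors, MRPL12 had a TE of 0.638, 0.695 and 0.840, MRPL11 of 0.448, 0.410 and 0.424 and MRPL10, the stalk base, of 0.260, 0.248 and 0.233. These 3 genes did not overlap one another in any replicate, and MRPL10 was called lower while MRPL12 and MRPL11 were called higher. The call for MRPL11 (0.15 on the log2 scale) was lost without any 1 of the replicates, and 95.2% of the CDS 30-mers of MRPL12 occur in other genes. MRPL1, of the other, mobile stalk, had 1.22, 1.34 and 1.22. In the central protuberance, TE ran from 0.210 for MRPL48 over 0.546 for MRPL38, 0.825 for MRPL46 and 1.41 for MRPL18 to 2.43 for MRPL40. Of these 5 genes 4 were called higher (80.0%), near the 76.7% of all 73 members, where 44.7% of all genes were called higher. MRPL38 and MRPL46 share 94.1% and 72.0% of their CDS 30-mers with other genes, so their values are uncertain. Of proteins at the mRNA channel, MRPS5 had 0.595, 0.586 and 0.607 and MRPS24 had 0.385, 0.373 and 0.357. Both share most of their CDS 30-mers with other genes (95.65% and 92.0%), so these values are uncertain. MRPS18C, 1 of 3 paralogs of bacterial S18, had 1.68, 1.72 and 1.81 and shares 40.75% of its 30-mers with other genes. Of its paralogs MRPS18A has an occupancy only and MRPS18B no value here.

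Symbol groups, subunits and origins were compared by their medians, with no test. In replicates 1, 2 and 3 the median of the 26 MRPS genes lay 1.53, 1.52 and 1.57 above that of all genes on the log2 scale, and the median of the 47 MRPL genes 1.26, 1.22 and 1.10 above it. Of the MRPS genes 22 were higher (84.6%) and 1 was lower (3.85%), and of the MRPL genes 34 were higher (72.3%) and 9 lower (19.15%). Over all genes 44.7% were called higher and 44.6% lower. The MRPS group includes MRPS36 and MRPS30. With proteins placed by structure instead, the 24 of the small subunit lay 1.27, 1.37 and 1.33 above all genes and the 48 of the large subunit 1.33, 1.24 and 1.10, so that the order turned in replicate 1. Of these, 20 of 24 were higher and 1 lower, and 35 of 48 were higher and 9 lower. The order of the symbol groups also turned, to 1.65 for MRPL and 1.33 for MRPS, when only genes with under 5% of shared 30-mers were used. Proteins with bacterial counterparts lay 1.40 ± 0.03 (SD, n = 3) above all genes, with 33 of 45 higher and 6 lower. Proteins specific to mitochondria lay 1.13 ± 0.04 above, with 22 of 27 higher and 4 lower. With means in place of medians the order of the origins turned, to 0.96 for bacterial and 0.99 for mitochondria-specific proteins.

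Other genes of mitochondrial translation were counted in the same fit, in which 44.7% of all genes were called higher and 44.6% lower. Of 6 mitoribosome proteins with other symbols 4 were higher and 2 lower, among them PTCD3 (TE 1.90 ± 0.04, SD, n = 3) and DAP3 (0.299 ± 0.016). Of 15 mitochondrial translation factors 5 were higher (33.3%) and 8 lower (53.3%), and their median TE was 0.249. The elongation factor TUFM (1.12 ± 0.03) and the mRNA-binding protein LRPPRC (2.34 ± 0.14) were higher, whereas the initiation factors MTIF2 (0.114 ± 0.002) and MTIF3 (0.195 ± 0.019) and the recycling factor MRRF (0.215 ± 0.031) were lower. Of 21 assembly factors 8 were higher (38.1%) and 10 lower (47.6%), near the shares over all genes. Among them MALSU1, which binds the large subunit, had 3.15 ± 0.08 and the helicase DHX30 had 0.0965 ± 0.0048. Cytosolic ribosomal proteins had a median TE of 1.71 with 71 of 76 higher, and complex I subunits a median of 1.03 with 26 of 34 higher. All 70 cytosolic ribosomal proteins with a matched CDS share at least 5% of their 30-mers with other genes, so their values are uncertain.

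**Figure D2:**
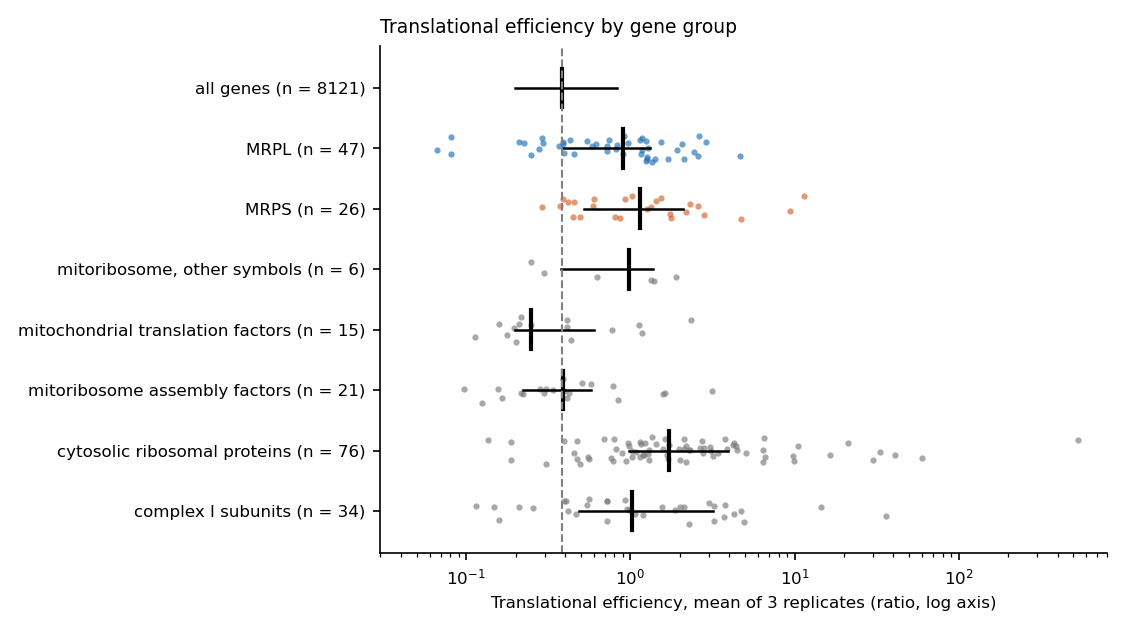
Mean translational efficiency over 3 replicates (ratio, log axis) by gene group, with a point for each gene (not drawn for all genes), a thick bar for the median and a line between the quartiles; the dashed line is the median of all genes. MRPL and MRPS genes lie mostly to the right of the line, near complex I subunits, and mitochondrial translation factors mostly to the left.

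Occupancy of the coding sequence was compared next. Its mean per codon had a median of 0.0632 over the 71 mRNAs and of 0.0450 over all, and 54 of 71 lay above the median of all. MRPL22 had the highest mean (0.449), followed by MRPL19 (0.258), MRPL30 (0.255), MRPL42 (0.228) and MRPS21 (0.211). The lowest were MRPS12, the decoding-centre protein (0.0218), MRPS24 (0.0226) and MRPL37 (0.0228). MRPL45, which ties the ribosome to the inner membrane, had 0.136 and MRPS18A had 0.0479. All CDS 30-mers of MRPL30, 92.0% of those of MRPS24 and 41.5% of those of MRPL45 also occur in other genes, so these values are uncertain.

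The low values of a transcript are sums of 3 steps, the worth of 1 read in each replicate, which gives the number of reads and an mRNA abundance relative to the median transcript. Steps were found for 70 of the 71 mRNAs, all but MRPS14. Together these hold 524173 in-frame CDS reads, 0.785% of 66744481 in the table, with a range of 1326 to 30816 per mRNA. Most of these reads (84.7%) lie in codons of high value and are estimates. Reads per codon had a median of 32.9, against 3.89 for all transcripts, 58.9 for complex I subunits and 570 for cytosolic ribosomal proteins. Relative abundance had a median of 5.22, and 69 of the 70 mRNAs were above the median transcript, MRPL22 (0.975) being the exception. MRPS21 had the most reads per codon (188) and MRPS31 the fewest (9.72).

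The mRNAs were more alike in reads per codon than in TE. The SD over mRNAs on the log2 scale was 0.81 for reads per codon, 0.95 for relative abundance, 0.91 for occupancy and 1.42 for TE. Over all transcripts the SD of reads per codon was 2.56, and over all genes that of TE was 1.605. For cytosolic ribosomal proteins these were 0.95 and 1.99 and for complex I subunits 1.14 and 1.88. Both families were thus also more alike in reads per codon than in TE. In mitochondrial ribosomal proteins the quartiles of reads per codon were 22.6 and 41.4. Occupancy and relative abundance ran in opposite directions over the 70 mRNAs (Spearman's rho = -0.599), whereas over all transcripts rho was 0.118. Abundance is the divisor of occupancy, so the axes share a term, and the coefficient is a description.

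TE and occupancy ranked the 68 mRNAs with both values in a related order (rho = 0.512, against 0.688 over 6912 mRNAs of the whole series), and both hold the RPFs of the same libraries. MRPL33 lay apart, with a TE at percentile 4.45 of all genes and an occupancy at percentile 78.7 of all transcripts. MRPL19 was at percentile 71.3 of TE and 97.0 of occupancy, and MRPL23 at percentile 94.1 of TE and 42.5 of occupancy. Occupancy was lower at a higher share of G or C at the last position of codons over the 71 mRNAs (rho = -0.694, against -0.378 over 9137 transcripts), and so was TE over 73 genes (rho = -0.399, against -0.224 over 6652). Over all transcripts TE and occupancy were also lower in longer CDS (rho = -0.259 over 6912 and -0.28 over 9570). Over the members rho was -0.152 for TE and -0.117 for occupancy, and their CDS are shorter (median 191 codons against 448). All mRNAs come from the same libraries, and the parts of base composition and CDS length in these values were not tested.

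**Figure D3:**
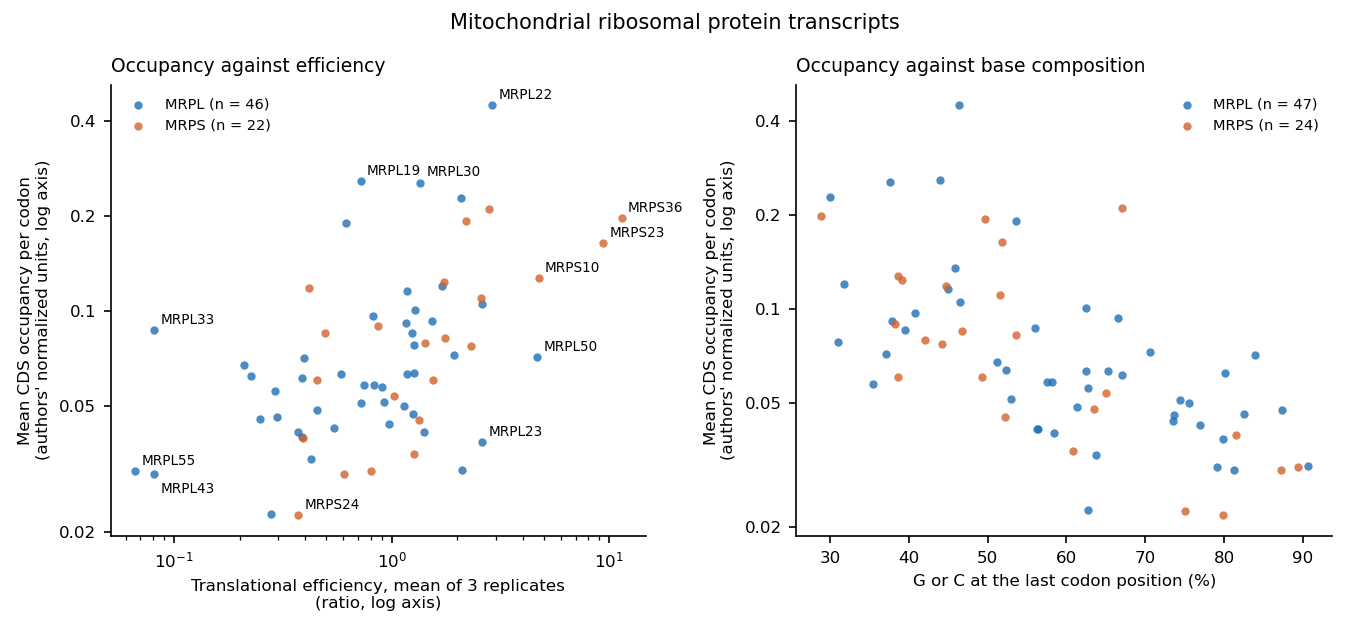
Mean CDS occupancy per codon (authors' normalized units, log axis) of mRNAs of mitochondrial ribosomal proteins against mean translational efficiency (ratio, log axis, left) and against the share of G or C at the last position of codons (right), with a point for each mRNA. On the right the 4 mRNAs with the highest occupancy, MRPL22, MRPL19, MRPL30 and MRPL42, lie at low G or C, and MRPS12 and MRPS24 lie low in occupancy at high G or C.

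Along the coding sequence, occupancy was low after the start codon. In the 63 mRNAs with more than 120 codons, codons 2 to 16 had a median of 0.184 times the mean of the same CDS, and 58 of the 63 (92.1%) were below their own mean there, as were 77.1% of all transcripts of that length. Codons 17 to 31 had a median of 0.381, codons 32 to 46 of 0.719 and codons 77 to 91 of 1.07. In the 2565 transcripts of the whole series with at least as many reads per codon as the lowest member, codons 2 to 16 had a median of 0.394 and codons 17 to 31 of 0.586, and 80.4% were below their own mean in codons 2 to 16. The complex I subunits counted here, which are imported as well, had 0.252 and 0.360 in the same bins, with 87.0% below their own mean in the first of them. Cytosolic ribosomal proteins had 0.595 and 0.735 in these bins. The 5 mRNAs above their own mean in codons 2 to 16 were MRPL1, MRPL48, MRPS27, MRPS12 and MRPL30, with 1.05 to 1.43 times it. Over the first 75 codons, the window used in the study, 49 of 68 mRNAs had a lower mean than over the last 75 codons (72.1%), as did 50.8% of all transcripts with a CDS over 300 nt. In short CDS, such as MRPL57 with 103 codons, the windows overlap. The CDS of the 71 mRNAs are shorter than those of all transcripts (median 191 codons against 448), so the shares rest on unlike lengths.

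The same codons encode a basic N-terminus. Codons 2 to 31 held a median of 4 more arginine and lysine codons than acidic ones, and the excess was above 0 in 70 of 71 mRNAs, against 47.3% of all. The median was 4 in complex I subunits and in cytosolic ribosomal proteins too, and 0 over all mRNAs. In codons 32 to 61 the median was 2 for mitochondrial ribosomal proteins, 1.5 for complex I subunits and 4 for cytosolic ribosomal proteins. The part of these codons in the occupancy was not tested.

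**Figure D4:**
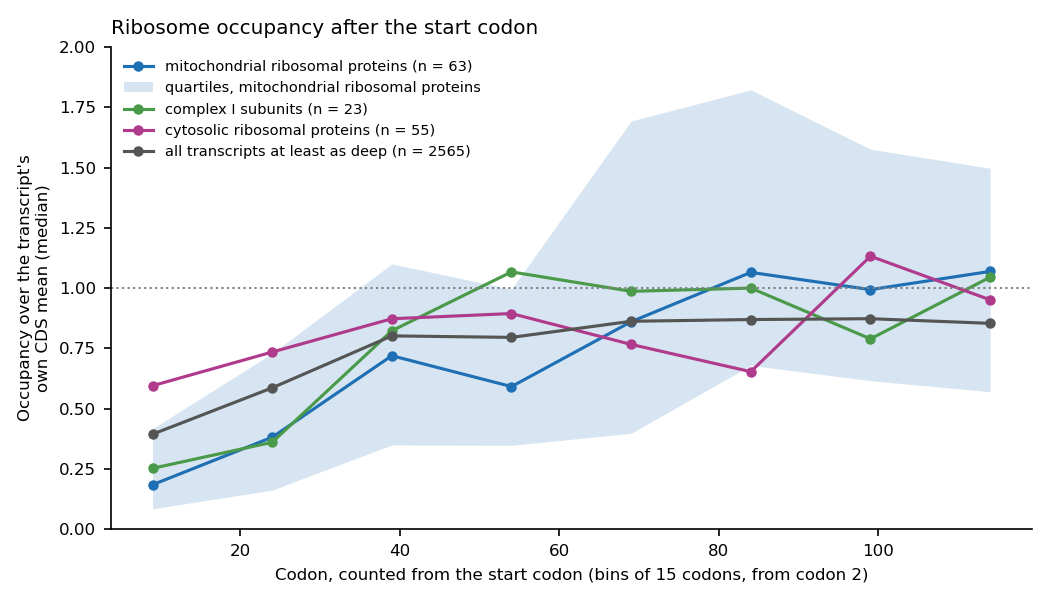
Median ribosome occupancy over the transcript's own CDS mean, in bins of 15 codons after the start codon, for 4 sets of transcripts with more than 120 codons; the shaded band spans the quartiles of the 63 mitochondrial ribosomal proteins. These and the complex I subunits start lowest, at 0.184 and 0.252, and cytosolic ribosomal proteins highest, at 0.595.

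Single codons took large shares of the occupancy of some mRNAs. In 4 of 71 mRNAs 1 codon held over 20% of the CDS occupancy. In MRPL52 it was codon 102 of 123 with 27.9% (95% Wilson interval 27.0% to 28.9%, from about 2640 of 9449 reads), and the next codon in rank held 5.70%. In MRPL34 it was the start codon with 26.2% (24.3% to 28.2%), in MRPS26 codon 185 of 206 with 25.7% (24.2% to 27.2%) and in MRPL53 codon 27 of 113 with 22.7% (21.1% to 24.4%). The intervals cover counting error only. The sequences around these codons are shown because the peaks differ in place and letters, with the codon under the peak in capitals. The window of MRPL53 spans 2 exons, and all CDS 30-mers of MRPL53 also occur in other genes.
MRPL52 (chr14:23303453-23303479, plus strand, codon 102): caggaagaacaaAGGaagcaggaaaat
MRPL34 (chr19:17416693-17416716, plus strand, codon 1): actgcggatATGgctgtcttggct
MRPS26 (chr20:3028438-3028464, plus strand, codon 185): ttggactcccggAAGaactacaactgg
MRPL53 (chr2:74699597-74699721, minus strand, codon 27): ttcgagaaaaacGTGgaatcgacgagg
The median over the 71 mRNAs of the highest single-codon share was 7.59%, against 4.95% over all transcripts, whose CDS are longer (median 191 codons against 448). In 3 of the 71 the start codon held the highest share. How many of all transcripts held over 20% at 1 codon, or peaked at the start codon, was not counted, so both counts are descriptions.

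**Figure D5:**
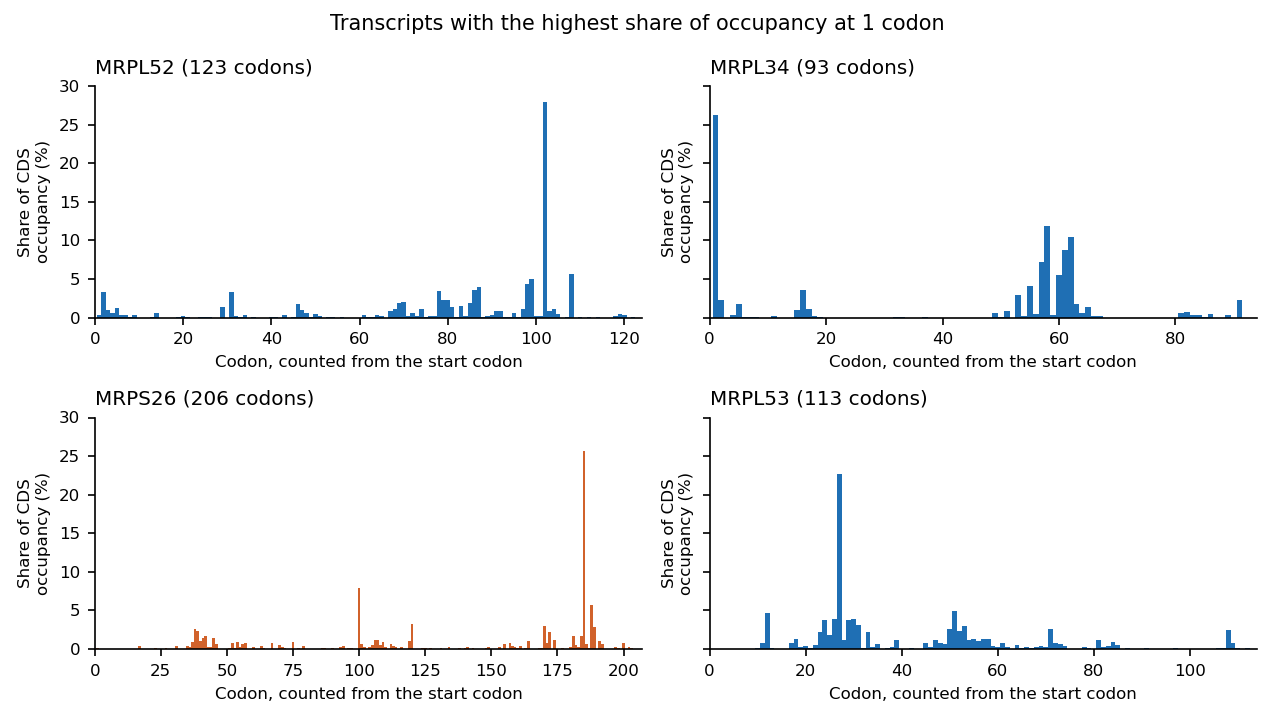
Share of the CDS occupancy (%) at each codon of MRPL52, MRPL34, MRPS26 and MRPL53, the 4 mRNAs with over 20% at 1 codon, with a bar for each codon counted from the start codon. MRPL52 and MRPS26 peak late in the CDS, MRPL34 at the start codon and MRPL53 at codon 27.

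The 5′UTRs were short, and their occupancy relative to the CDS was below that of all transcripts at the median. Their median length was 26 codons, against 56 for all transcripts, and 44 of 71 had 33 codons or fewer (62.0%, against 27.8% of all). The ratio of 5′UTR to CDS occupancy, in the frame of the CDS, had a median of 0.00625 against 0.0286 for all. Complex I subunits had a median length of 27.5 codons, 61.1% at 33 codons or fewer and a median ratio of 0.00266. Cytosolic ribosomal proteins had 22 codons, 80.3% and 0.0032, so short 5′UTRs of low ratio were not particular to this group. No 5′UTR read was found in 13 of the 71 (18.3%, against 22.9% of all), and 50 of the 70 with a read number had fewer than 20 (71.4%, against 65.4% of all). In 6 exceptions the mRNA had a ratio above 0.1, as did 28.1% of all transcripts. MRPS27, a pentatricopeptide repeat protein of the small subunit, had the highest (0.276, from 490 reads over 54 codons), followed by MRPL55 (0.192, about 117 reads) and MRPL24 (0.192, 226 reads). MRPS12 (0.143), MRPL16 (0.127) and MRPL48 (0.115) were the others. In MRPL16 and MRPL48 the codon next to the start codon held 94.3% and 98.4% of the 5′UTR occupancy, whereas in MRPS27 no codon held more than 18.8%. MRPS27 was also the member without an excess of basic over acidic codons after the start codon, with a value of -1. Its transcript was set by the authors, and whether its 5′UTR reads lie in a CDS that starts further upstream was not tested. The same limit holds for the values of MRPS27 just after the start codon. In the last 17 codons of the 27 mRNAs with a 5′UTR over 100 nt, mean occupancy was 0.00741 and the median 0.00233. The median over all transcripts with such a 5′UTR was 0.00195, so in this window, not divided by CDS occupancy, the members were not lower at the median.

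The 3′UTRs were almost empty, with a median ratio to CDS occupancy of 3.5e-04, against 1.78e-04 for all transcripts. MRPS31 had the highest ratio (0.0449, from 14 reads over 31 codons), then MRPL23 (0.0218, about 91 reads over 73 codons) and MRPL33 (0.00699, 25 reads). The letters of the TOP motif of cytosolic ribosomal protein mRNAs are a C followed by 4 pyrimidines. At the annotated transcription start (RefSeq, GRCh38) they were present in 5 of 67 members (7.46%), in 43 of 66 cytosolic ribosomal proteins and in 4.04% of 27305 genes. These 27305 are all genes of that reference, whether or not they were measured here. The 5 members were MRPL44, MRPL45, MRPL53, MRPS27 and MRPS33.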

How the data were processed

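RPFs and total RNA of HEK293 cells were sequenced in 3 replicates. The authors took off adapters, unique molecular identifiers and PCR duplicates. RPFs were aligned with bowtie (Bowtie 1.1.2 per the labels) and total RNA with Hisat2 according to the methods (TopHat2 2.1.1 in the submitters' processing notes), both to the transcriptome of hg19. Total RNA reads were counted with HTSeq 0.9.1, and RPF positions with a modified RiboCounts script. The translational efficiency deposited by the authors is a ratio on the linear scale, RPFs over total RNA in each replicate. How both terms were scaled was not stated, and the depth behind it is unknown. Occupancy, as deposited, is the number of in-frame RPFs at a codon after scaling to library size and division by TPM, with replicates combined. Reading frame, read offset and the most abundant transcript of each gene were set by the authors.

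TE was tested over all 8121 genes with limma (version 3.58.1, under R version 4.3.3), using log2(TE + 0.01) minus the median of all values (two-sided, Benjamini-Hochberg, FDR 0.05), and with treat for a difference over 2-fold. Fold changes are on that scale. On simulated data for this comparison (8121 genes, 200 moved), 165 moved and 13 unmoved genes were called and 0 had the wrong sign. The methods give the procedure as done in triplicate without saying whether this began from separate cultures, so p-values measure the spread between these samples. Read steps (tolerance 1e-07) were found for all 300 simulated transcripts, with a largest error of 1.55% in the number of reads, and for 99.7% of the real ones. The simulated transcripts were set to fewer reads per codon than most mRNAs of mitochondrial ribosomal proteins hold, so the error at that depth was not measured. Of the occupancy lines, 31 were broken and rejoined, none of them of a mitochondrial ribosomal protein.

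CDS sequences were matched by symbol and CDS length to GENCODE 44 on GRCh37 (the same build as hg19) for 9137 of 9570 transcripts. Shared sequence means CDS 30-mers that another gene's transcripts also hold, in percent. Of the 73 members with a TE, 27 held 5% or more.

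Named are the 5 highest and 5 lowest genes by TE in each of MRPL and MRPS, the 3 with the largest SD, with the highest 5′UTR or 3′UTR ratios and with the highest single-codon shares, genes in 1 table, MRPS36, the MRPS18 paralogs and genes with known structural places. Other named genes were chosen after their values were seen. The group was proposed, and the lists and tests were chosen, with earlier results of these data known, although the symbol rule itself uses no measured value. The alternatives were other pseudocounts, a filter on low TE, leaving out each replicate, a replicate block, genes of little shared sequence, and other summaries of occupancy.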

Additional observations from a re-analysis of the deposited data

How the results depend on the processing

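RPFs and total RNA are paired by replicate number within the deposited ratio, and how paired libraries deviate together could not be examined, because only the ratio was analysed. With a replicate block, in which each replicate was set against its own median, 56 members were higher and 10 lower, and past 2-fold 40 were higher and 3 lower, and it changed no call of a member. With replicates left out in turn, 54 were higher and 10 lower each time, and past 2-fold 36 to 39 were higher and 3 lower. The pseudocount of 0.1 gave 35 higher past 2-fold. Among genes with under 5% of shared CDS 30-mers, 35 of 46 members were higher (76.1%), 7 were lower (15.2%) and 26 were higher past 2-fold (56.5%). The reference was then the median of the genes left, and MRPL1 moved from 1.69 to 1.81 on the log2 scale. In the main fit 44.7% of all genes were called higher and 44.6% lower, and past 2-fold 23.3% and 18.2%. Such shares over all genes were not counted for the other settings, so the members' counts there have no background beside them.

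The median difference from all genes on the log2 scale was 1.44 for the members, 1.65 for MRPL, 1.33 for MRPS, 1.58 for bacterial and 1.26 for mitochondria-specific proteins among genes with little shared sequence, where the order of MRPL and MRPS turned. With means in place of medians it was 1.02, 0.79, 1.44, 0.96 and 0.99 in the same order, where the order of bacterial and mitochondria-specific proteins turned. The cause was not tested. Leaving out each replicate gave 1.27 to 1.37 for members, 1.16 to 1.24 for MRPL, 1.53 to 1.55 for MRPS, 1.39 to 1.42 for bacterial and 1.12 to 1.15 for mitochondria-specific proteins.

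Over 557 repeated tests of single members, 542 gave the same call, 7 lost it (of MRPL11, MRPL24 and MRPS25), 1 gained it (MRPL34) and 7 turned the sign of a difference that did not pass the test. These were MRPL21 (0.0661 with little shared sequence, and -0.118 to 0.0041 with replicates left out), MRPL27 (-0.0026 with the filter on low TE, and -0.031 to 0.0636 with replicates left out), MRPL49 (-0.0029 with the filter, and -0.0492 to 0.0852) and MRPS2 (-0.007 to 0.0468 with replicates left out).

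The median CDS occupancy of 0.0632 was 0.0658 without the first and last 15 codons, 0.0541 without the highest 1% of codons and 0.0157 as the median over codons. The mean occupancy of 0.00741 in the last 17 codons of the 27 mRNAs with a 5′UTR over 100 nt was 0.00420 without the 5 codons next to the start codon and 0.00233 as a median over these 27. The median over all transcripts with such a 5′UTR was 0.00195. The depth behind TE is unknown, and occupancy has no replicate error.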
